A study of Homo sapiens with 8 samples.

Results

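The kinesins are motor proteins that use ATP to walk along microtubules or to take apart their ends. Many of them build the mitotic spindle, move chromosomes and finish cytokinesis, others carry vesicles and organelles through the cytoplasm, and a further set works in cilia. Genes were taken as kinesins when their symbol was KIF followed by a number and at most a letter and a digit. This rule was met by 35 of the 33711 genes with expression values, and by 196 of 134605 transcripts. It left out KIFC1, KIFC2, KIFC3 and CENPE, which are kinesins with other names, and KIF2B, KIF6, KIF19, KIF25 and KIF28P were not analysed here. By their known roles, 13 of the 35 genes were grouped as mitotic, 11 as transport, 8 as ciliary and 3 as other.

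HCT116, a human colorectal cancer cell line, was transfected by jetPRIME with siRNA against YTHDF3 (si-YTHDF3) or with a negative control siRNA (NC). YTHDF3 is a cytoplasmic protein that reads N6-methyladenosine (m6A) in RNA. Expression values were used for 4 input RNA libraries, 2 of si-YTHDF3 and 2 of NC, as FPKM, a fragment count divided by transcript length and by library size, so that levels of different genes compare per length. The study lists different siRNAs against YTHDF3 and the si-YTHDF3 libraries carry different names, so it is not known whether both received the same siRNA.

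The level of YTHDF3 itself was 2.53 and 3.25 FPKM in si-YTHDF3, against 25.9 and 11.96 FPKM in NC. FPKM totals ran between 371121 and 383303, and the number of genes at 1 FPKM or more between 14357 and 14483. Among epithelial genes EPCAM and KRT8 were present in all 4 libraries, and the intestinal transcription factor CDX2 was at 5.79 and 5.63 FPKM in si-YTHDF3 and 5.40 and 4.59 FPKM in NC, whereas the intestinal genes VIL1, CDH17 and GPA33 stayed below 1 FPKM. Nothing in the labels gives the libraries as separate cultures, and p-values therefore cover the spread among these 4 libraries alone, possibly a technical one. Read depth is unknown.

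The kinesins covered a wide range of levels in these cells. KIF5B, the ubiquitous kinesin-1 heavy chain, had the highest level, followed by the mitotic genes KIF22, KIF2C, KIF18B, KIF23 and KIF20A. Of the 12 highest genes 10 were mitotic. KIF17, KIF26B, KIF4B and KIF1A averaged under 1 FPKM and were not tested, and KIF1A, a motor of neuronal vesicles, was at 0.01 FPKM or less in both si-YTHDF3 libraries and at 0 in NC. KIF4B is a near-identical intronless copy of KIF4A, so its values of 0.12 and 0.10 FPKM in si-YTHDF3 and 0.10 and 0.12 FPKM in NC are uncertain. In bulk RNA, fewer cells in a cell cycle stage and less RNA per cell cannot be told apart.

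**Figure D1:**
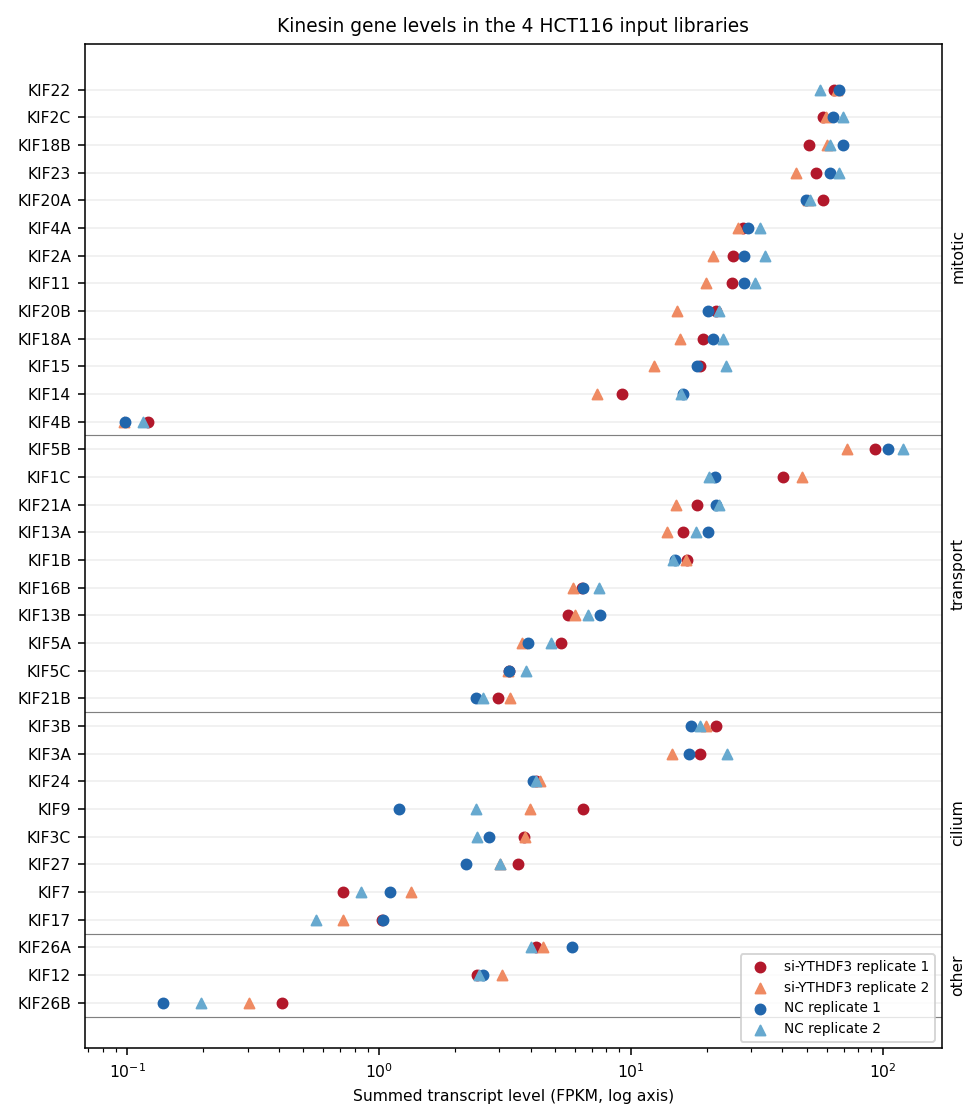
Level of 34 kinesin genes in each input library (x axis, summed FPKM, log axis), grouped by role, with red symbols for si-YTHDF3 and blue symbols for NC. KIF1A is left out because its mean is under 0.1 FPKM. KIF5B has the highest level, and KIF1C and KIF14 show the clearest gap between the groups among genes above 5 FPKM.

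Each gene was compared between si-YTHDF3 and NC with limma on log2(FPKM + 1), with p-values adjusted over all 14457 genes tested. Of the 31 kinesins tested 13 had a higher and 18 a lower mean in si-YTHDF3, where 52.0% of all genes had a higher mean. Of the 31, 0 passed an adjusted p of 0.05, against 0.0277% of all genes (4 genes). At an unadjusted p under 0.05, 3 were higher (KIF1C, KIF9 and KIF3C) where 8.29% of all genes were, and 4 were lower (KIF14, KIF5B, KIF21A and KIF23) where 6.53% of all genes were. Both si-YTHDF3 libraries lay above both NC libraries for 7 kinesins, a pattern shown by 25.3% of all genes. They lay below both for 14 kinesins, a pattern shown by 23.7% of all genes. The median log2 fold change of the kinesins was -0.16, and that of all genes was 0.01.

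**Figure D2:**
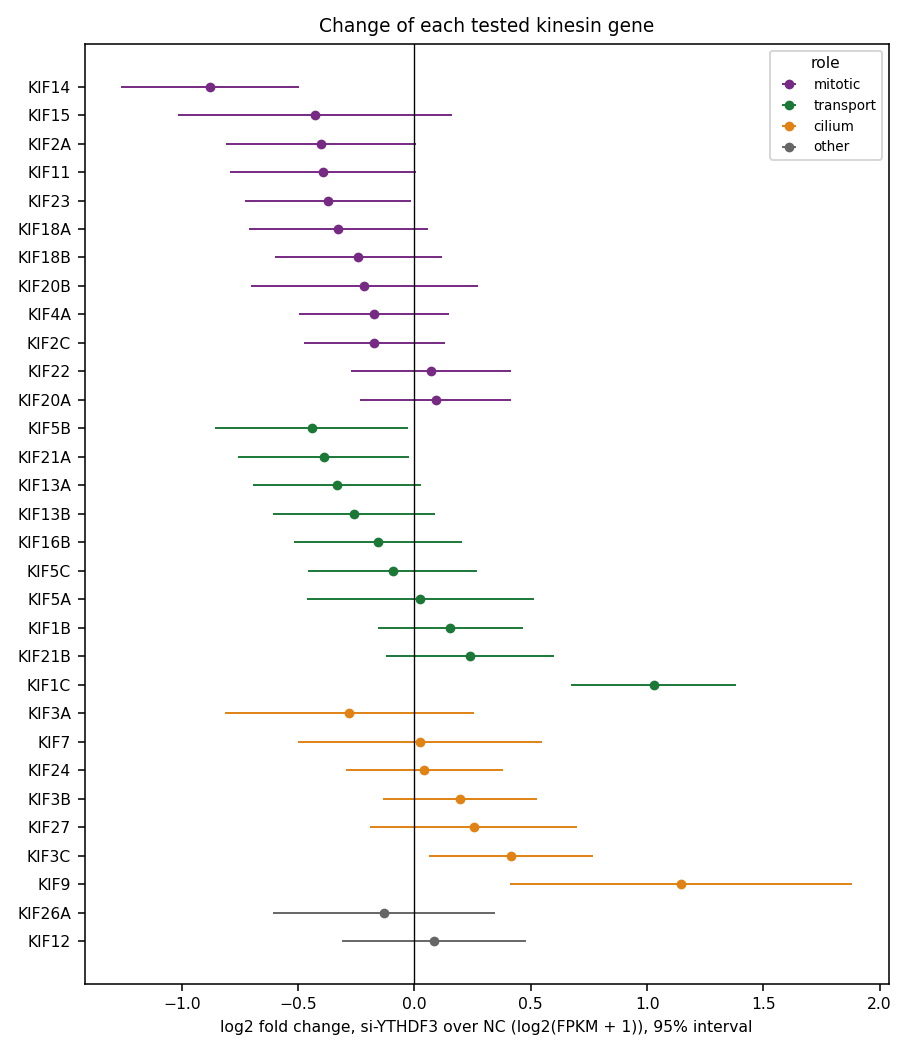
The log2 fold change of each tested kinesin gene, si-YTHDF3 over NC (x axis, from log2(FPKM + 1)), with 95% intervals from limma (bars), grouped by role. Intervals leave 0 for 7 of 31 genes, among them KIF14 at -0.88, KIF1C at 1.03 and KIF9 at 1.15.

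Among the 12 mitotic kinesins tested, 10 had a lower mean in si-YTHDF3 and 8 had both si-YTHDF3 libraries below both NC libraries (23.7% of all genes), with a median log2 fold change of -0.28. The other 19 kinesins tested had 8 lower and 11 higher means, with a median of 0.03. In 6 of these 19 the si-YTHDF3 values were likewise all under the NC values, and these 6 were transport kinesins. The difference between the mitotic and the other kinesins has no test here. KIF14, a kinesin-3 of the midbody that is needed for cytokinesis (chr1:200551497-200620734, GRCh38, minus strand), had 9.20 and 7.35 FPKM in si-YTHDF3, against 16.2 and 15.8 FPKM in NC. The groups did not overlap and the NC libraries were close to each other. Its log2 fold change was -0.88 ± 0.15 (SE, n = 2 each; limma adjusted p = 0.156).

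KIF23, also called MKLP1, is the motor of the centralspindlin complex at the central spindle. It had 54.2 and 45.3 FPKM in si-YTHDF3 and 61.6 and 67.4 FPKM in NC, with no overlap (log2 fold change -0.37, limma adjusted p = 0.323). KIF11, the kinesin-5 that pushes spindle poles apart, had 25.2 and 19.9 FPKM in si-YTHDF3 and 28.3 and 31.2 FPKM in NC. The log2 fold change of KIF11 was -0.39, with an interval that included 0. KIF2A, a kinesin-13 that depolymerizes microtubule ends, had 25.5 and 21.2 FPKM in si-YTHDF3 and 28.2 and 34.1 FPKM in NC. KIF18A, which dampens chromosome movements at the metaphase plate, had 19.4 and 15.7 FPKM in si-YTHDF3 and 21.2 and 23.1 FPKM in NC. In all these genes the second si-YTHDF3 library was the lowest of the 4.

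The same 2-library order was seen in KIF15, a second spindle-separating motor, but there the groups overlapped, with 18.9 and 12.4 FPKM in si-YTHDF3 and 18.4 and 23.9 FPKM in NC. KIF20B, a cytokinesis kinesin-6, overlapped as well, with 21.7 and 15.2 FPKM in si-YTHDF3 and 20.2 and 22.5 FPKM in NC. KIF18B, a regulator of astral microtubules, had 50.8 and 60.1 FPKM in si-YTHDF3 and 69.6 and 61.6 FPKM in NC. KIF2C (MCAK), the kinetochore depolymerase, had 57.9 and 59.8 FPKM in si-YTHDF3 and 63.5 and 69.4 FPKM in NC. In both genes the groups came close without overlapping, with log2 fold changes of -0.24 and -0.17. In KIF18B, ENST00000585687, annotated as a retained intron of 581 bases, held 33.4% to 42.5% of the sum. It had 17.0 and 21.4 FPKM in si-YTHDF3 and 25.4 and 26.2 FPKM in NC. The main coding transcript, ENST00000587309, overlapped, with 28.0 and 31.4 FPKM in si-YTHDF3 and 36.2 and 28.5 FPKM in NC. Both transcripts were singled out after their values were seen. KIF4A, which compacts chromosomes and limits the midzone, had 27.9 and 26.7 FPKM in si-YTHDF3 and 29.2 and 32.6 FPKM in NC. The intervals of these 3 genes included 0.

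KIF20A (MKLP2), which brings the chromosomal passenger complex to the midzone, and KIF22 (Kid), which binds chromosome arms, were the mitotic kinesins with a higher mean in si-YTHDF3. KIF20A had 57.7 and 50.5 FPKM in si-YTHDF3 and 49.8 and 51.5 FPKM in NC. KIF22 had 64.0 and 65.7 FPKM in si-YTHDF3 and 67.4 and 56.4 FPKM in NC. In both genes the groups overlapped, and the log2 fold changes were 0.09 and 0.07.

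The si-YTHDF3 libraries differed from each other in these genes. The second was below the first in 20 of 31 kinesins and in 9 of 12 mitotic ones, where 7251 of all 14457 genes were. The first lay below both NC libraries in 16 of 31, where 4972 of all 14457 genes did. The second did so in 18 of 31, where 5371 of all 14457 genes did. Leaving out 1 library at a time gave medians of the kinesins between -0.18 and -0.072. The median of the mitotic kinesins was -0.47 without the first si-YTHDF3 library.

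Transcript length also moved with the change. Genes whose most abundant transcript had 4503 to 30355 bases had a median log2 fold change of -0.07, and those with 57 to 880 bases had 0.08. The longest class held 18 of the 31 kinesins tested. Its part in the kinesin values was not tested. Markers of proliferation were lower in part, with 11 of 16 lower, where 6941 of all 14457 genes were, and a median of -0.14. CDK1, TOP2A and CCNA2 were lower at an unadjusted p under 0.05 in limma, where 6.53% of all genes were. In 8 of the 16 the si-YTHDF3 values were all under the NC values, against 23.7% of all genes, and in 1 all over them. The summed level of the 16 markers was 1259.6 and 1249.5 FPKM in si-YTHDF3 and 1350.1 and 1305.5 FPKM in NC. The part of cell cycle stage in the values of the mitotic kinesins was not tested.

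Promoters were examined as a description of what the mitotic genes share. RefSeq promoters of GRCh38.p14, from 250 bases before to 50 bases after the start, were matched for 30 of the 35 kinesins and searched on both strands for 7 motifs, chosen after the expression values were known. TTTGAA, the core of the cell cycle genes homology region (CHR), was present in 9 of 13 mitotic kinesins (69.2%) and in 1 of 17 others (5.88%), against 18.2% of 27305 genes. CCAAT, the NF-Y box, was present in 10 of 13 and 6 of 17, against 39.7% of all genes. Both were present in 8 of 13 and 1 of 17, against 7.26% of all genes. Of the other motifs, TTTAAA was in 4 of 13 mitotic kinesins and 1 of 17 others (14.5% of all genes), TTCGAA in 1 of 13 and 1 of 17 (1.82%), and TTTGGCGC in 1 of 13 and 0 of 17 (0.795%). GGCGGGAA (3.79% of all genes) and TTTCGCGC (0.63%) were in 0 of the 30. Matches of different motifs could overlap. Of the 10 mitotic kinesins with a lower mean, 7 held both TTTGAA and CCAAT, KIF15 held TTTGAA without CCAAT, and KIF2A and KIF2C held neither. KIF20A and KIF22, the mitotic kinesins with a higher mean, held CCAAT without TTTGAA, and KIF1C held neither. Among the mitotic kinesins TTTAAA was held by KIF20A, KIF2C, KIF14 and KIF23, and TTCGAA by KIF22. KIF20A, KIF22 and KIF2C thus lacked TTTGAA but each held 1 of these other motifs.

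The 100 bases before the RefSeq start are shown for 5 of the 7 mitotic kinesins with a lower mean and both motifs. They are also shown for KIF20A with CCAAT alone of the pair, and for KIF1C with neither. TTTGAA and CCAAT on either strand are in capitals. The RefSeq start can differ from the starts of the transcripts measured here. For KIF23, KIF18A and KIF20A the bases shown lie within the span of a measured transcript, and for KIF4A and KIF1C the last of them do. In KIF14, TTTGAA lies on the reverse strand just after the start, outside the bases shown. These genes were picked after their values were seen.
KIF23 promoter (chr15:69414249-69414348, plus strand): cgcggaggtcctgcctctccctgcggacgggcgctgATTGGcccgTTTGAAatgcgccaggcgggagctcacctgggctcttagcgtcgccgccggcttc
KIF11 promoter (chr10:92593030-92593129, plus strand): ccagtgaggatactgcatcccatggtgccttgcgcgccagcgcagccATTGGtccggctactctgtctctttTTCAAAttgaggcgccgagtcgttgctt
KIF18A promoter (chr11:28108157-28108256, minus strand): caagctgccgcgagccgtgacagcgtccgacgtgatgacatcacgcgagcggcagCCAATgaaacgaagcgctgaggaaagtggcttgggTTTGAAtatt
KIF4A promoter (chrX:70290004-70290103, plus strand): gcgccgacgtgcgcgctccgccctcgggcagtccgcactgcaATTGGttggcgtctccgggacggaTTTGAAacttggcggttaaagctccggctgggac
KIF14 promoter (chr1:200620752-200620851, minus strand): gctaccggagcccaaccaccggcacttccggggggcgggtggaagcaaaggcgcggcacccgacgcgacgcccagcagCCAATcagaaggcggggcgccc
KIF20A promoter (chr5:138179012-138179111, plus strand): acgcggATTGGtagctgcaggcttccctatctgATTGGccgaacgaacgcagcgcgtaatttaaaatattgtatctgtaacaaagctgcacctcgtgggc
KIF1C promoter (chr17:4997850-4997949, plus strand): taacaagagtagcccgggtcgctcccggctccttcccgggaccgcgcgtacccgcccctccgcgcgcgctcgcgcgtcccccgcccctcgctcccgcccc
A match is a description of these letters only, and binding was not measured.

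Among the 10 transport kinesins tested, 4 had a higher and 6 a lower mean in si-YTHDF3, with a median of -0.13. In 6 of the 10 the si-YTHDF3 values were all under the NC values, against 23.7% of all genes. These 6 were KIF5B, KIF21A, KIF13A, KIF13B, KIF16B and KIF5C. In 3 of the 10 they were all over the NC values, against 25.3% of all genes. KIF1C (chr17:4997948-5028401, GRCh38, plus strand), a kinesin-3 that carries integrins and dense core vesicles, had 40.2 and 47.9 FPKM in si-YTHDF3, against 21.6 and 20.4 FPKM in NC. Both si-YTHDF3 libraries were far above both NC libraries. The log2 fold change was 1.03 ± 0.14 (SE, n = 2 each; 95% interval 0.67 to 1.38; limma adjusted p = 0.130). Transcript ENST00000320785, singled out after its values were seen, held 86.7% to 90.4% of the KIF1C sum in all 4 libraries, so its transcript shares stayed close.

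KIF5B had 93.6 and 72.5 FPKM in si-YTHDF3 and 105 and 120.2 FPKM in NC, with no overlap. Its log2 fold change was -0.44 (limma adjusted p = 0.318). KIF21A, a kinesin-4 that slows microtubule growth, had 18.3 and 15.1 FPKM in si-YTHDF3 and 21.7 and 22.5 FPKM in NC (log2 fold change -0.39, adjusted p = 0.318). KIF13A, a carrier of recycling endosomes, had 16.2 and 13.97 FPKM in si-YTHDF3 and 20.3 and 18.1 FPKM in NC. In these genes both si-YTHDF3 libraries were below both NC libraries. KIF13B and KIF16B, kinesin-3 motors of vesicles and early endosomes, had log2 fold changes of -0.26 and -0.16, and the neuronal kinesin-1 chains KIF5A and KIF5C had 0.03 and -0.09. KIF1B, which carries mitochondria and synaptic vesicle precursors, had 16.8 and 16.5 FPKM in si-YTHDF3 and 14.9 and 14.7 FPKM in NC, and KIF21B had a log2 fold change of 0.24. All intervals of these last 6 genes included 0.

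Among the 7 ciliary kinesins tested, 6 had a higher mean, as had 52.0% of all genes, with a median of 0.20. Both si-YTHDF3 libraries lay above both NC libraries for 4 of the 7, against 25.3% of all genes. KIF9, a kinesin-9 of motile cilia (chr3:47228026-47283451, minus strand), had 6.45 and 3.96 FPKM in si-YTHDF3, against 1.20 and 2.43 FPKM in NC. Its log2 fold change was 1.15 ± 0.29 (SE, n = 2 each; limma adjusted p = 0.230). The level was low, the leading transcripts were short, and the gene overlaps KLHL18 and KIF9-AS1 on the other strand. Whether counting used strand is not stated, so reads of these genes may not be told apart. KIF3C, a kinesin-2 chain, had 3.77 and 3.81 FPKM in si-YTHDF3 and 2.72 and 2.46 FPKM in NC, with no overlap (log2 fold change 0.42, limma adjusted p = 0.294).

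KIF3B and KIF3A, which form the kinesin-2 motor of intraflagellar transport, had log2 fold changes of 0.20 and -0.28. KIF3B had 21.9 and 19.8 FPKM in si-YTHDF3 and 17.4 and 18.8 FPKM in NC. KIF3A had 18.7 and 14.6 FPKM in si-YTHDF3 and 17.0 and 24.2 FPKM in NC, with overlap, and its main transcript had 731 bases. KIF27, KIF24 and KIF7, a group that includes the Hedgehog regulator KIF7, had log2 fold changes of 0.25, 0.04 and 0.02. The intervals of all 5 genes included 0. KIF7 averaged 1.00 FPKM, at the edge of the filter, with 0.72 and 1.34 FPKM in si-YTHDF3 and 1.11 and 0.84 FPKM in NC. A transcript of 527 bases held 0% and 98.1% of the KIF7 sum in si-YTHDF3 and 99.6% and 0% in NC. Of the remaining members KIF12 and KIF26A had 0.08 and -0.13 with overlapping groups. KIF26B was at 0.41 and 0.30 FPKM in si-YTHDF3 and 0.14 and 0.20 FPKM in NC, and KIF17 was at 1.03 and 0.72 FPKM in si-YTHDF3 and 1.03 and 0.56 FPKM in NC. Multiciliated cell markers were low, with summed levels of 3.26 and 3.96 FPKM in si-YTHDF3 and 2.47 and 2.35 FPKM in NC, and DNAH9 and TEKT1 had no value. Members differed in opposite directions. RSPH1 had 1.29 and 1.80 FPKM in si-YTHDF3 and 0.37 and 0.31 FPKM in NC, and FOXJ1 was also higher, at under 0.2 FPKM. CCDC39 had 0.52 and 0.38 FPKM in si-YTHDF3 and 0.71 and 1.08 FPKM in NC. The part of these markers in the ciliary values was not tested.

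Transcripts were compared next. Of 196 kinesin transcripts 81 were tested, 6 were higher and 5 lower at an unadjusted p under 0.05, where 7.21% of all transcripts passed, and 0 passed the adjusted threshold (lowest limma adjusted p = 0.168). In 3 of 19 kinesins with several transcripts and a mean of at least 5 FPKM, the share of a transcript differed without overlap by at least 20 percentage points, as in 14.4% of all such genes. These were KIF20A, KIF13A and KIF21A. The share of kinesins is close to that of all genes.

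In KIF20A, ENST00000394894 had 0.57 and 6.73 FPKM in si-YTHDF3, against 38.5 and 27.9 FPKM in NC. ENST00000508792 had 35.7 and 29.5 FPKM in si-YTHDF3, against 5.74 and 15.2 FPKM in NC. The coding transcript of 810 bases, ENST00000504621, had 14.9 and 8.50 FPKM in si-YTHDF3 and was listed at 0 in both NC libraries. The shares thus differed in opposite directions while the gene sum had a log2 fold change of 0.09. With the sum weighted by transcript length it was -0.23. KIF20A overlaps CDC23 (20.7 to 22.6 FPKM) and BRD8 (44.7 to 53.4 FPKM) on the other strand. Whether counting used strand is not stated, so reads of these genes may not be told apart.

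In KIF13A, ENST00000378843 had 0.42 and 3.79 FPKM in si-YTHDF3 and 8.31 and 7.76 FPKM in NC, while ENST00000378814 had 5.06 and 3.02 FPKM in si-YTHDF3 and 0.13 and 0.06 FPKM in NC. In KIF21A, ENST00000544797 had 6.28 and 7.19 FPKM in si-YTHDF3 and 11.3 and 14.6 FPKM in NC, and ENST00000541463 had 6.01 and 4.35 FPKM in si-YTHDF3 and was at 0 and 3.34 FPKM in NC. Other genes differed within a group, such as KIF15, where ENST00000326047 held 41.1% and 77.9% of the sum in si-YTHDF3 and 43.0% and 35.3% in NC. In KIF2A, ENST00000401507 had 2.68 and 6.51 FPKM in si-YTHDF3 and 8.46 and 16.1 FPKM in NC, without overlap but with a wide spread within each group. In KIF9, long transcripts differed in opposite directions, all under 1 FPKM. ENST00000335044 (3357 bases) had 0.40 and 0.14 FPKM in si-YTHDF3 and 0.64 and 0.70 FPKM in NC. ENST00000444589 (2791 bases) had 0.56 and 0.89 FPKM in si-YTHDF3 and 0 FPKM in both NC libraries. ENST00000265529 (3311 bases), singled out after its values were seen, had 0.22 and 0.36 FPKM in si-YTHDF3, against 0 and 0.002 FPKM in NC. KIF12, KIF17, KIF26B and KIF27 also ranked among the 10 genes with the largest change of a share, at gene means under 3 FPKM. ENST00000559279 of KIF23, singled out after its values were seen, had 1.65 and 2.17 FPKM in si-YTHDF3 and 8.73 and 8.86 FPKM in NC.

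**Figure D3:**
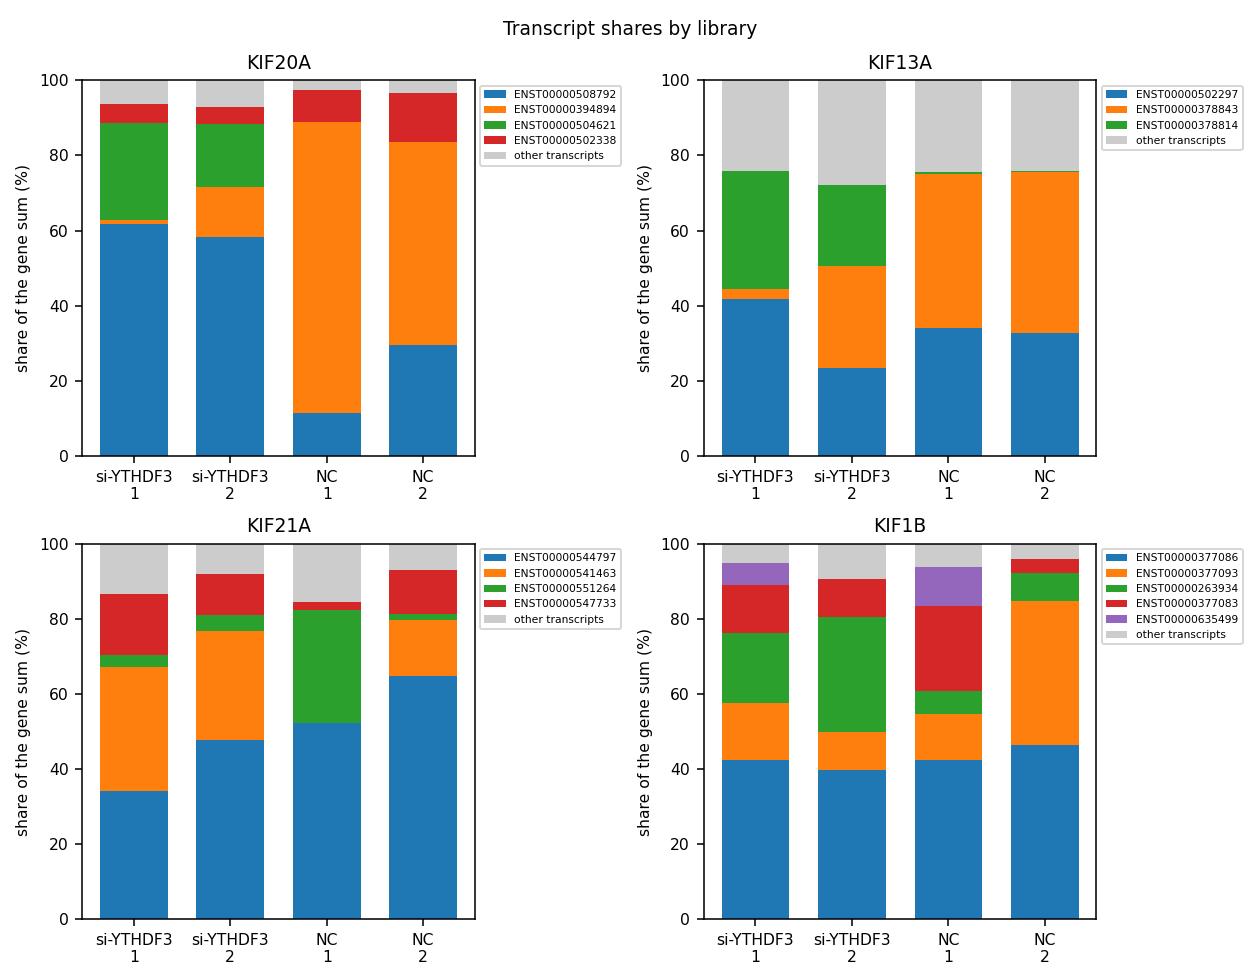
Share of the gene sum (y axis, percent) held by each transcript of KIF20A, KIF13A, KIF21A and KIF1B in each library (x axis, si-YTHDF3 at left). Transcripts under 10% in every library are grey. In KIF20A, ENST00000394894 holds 0.99% and 13.3% in si-YTHDF3 and 77.3% and 54.2% in NC.

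The m6A data consisted of differential peaks without values of the single libraries. The 99 peaks analysed here lie on chromosome 1, 94 of them in genes of the plus strand, and the list may be part of a longer one. Of 6 kinesins on chromosome 1, 3 of them on the plus strand, KIF1B had a listed peak. It lay in the 3' UTR at chr1:10378335-10378575 (GRCh38) with a listed fold enrichment of 1.37, against a median of 1.44 and a range of 1.08 to 3.82 over the list. The peak lies within ENST00000377086, the most abundant KIF1B transcript. ENST00000263934 ends 398 bases before it and had 3.14 and 5.04 FPKM in si-YTHDF3, against 0.92 and 1.09 FPKM in NC. Its log2 fold change was 1.32 ± 0.28 (SE, n = 2 each; limma adjusted p = 0.464), and it was singled out after its values were seen.

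**Figure D4:**
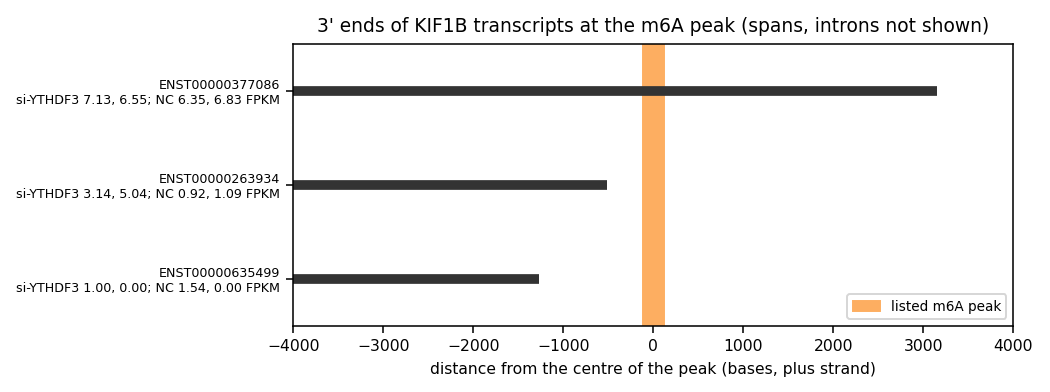
Spans of KIF1B transcripts near their 3' ends (bars, introns not shown) against distance in bases from the centre of the listed m6A peak (orange). ENST00000377086 runs past the peak, and ENST00000263934 ends 398 bases before its start.

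Genes that work with kinesins were compared from lists. CENPE, the kinetochore kinesin that congresses chromosomes, had 19.5 and 14.2 FPKM in si-YTHDF3, against 25.7 and 23.8 FPKM in NC (log2 fold change -0.55, limma adjusted p = 0.287). KIFC1, KIFC2 and KIFC3, minus-end directed motors, had 0.05, 0.37 and 0.27. Of 16 spindle and midzone partners 10 were lower, where 6941 of all 14457 genes were, with a median of -0.17. Among them RACGAP1, the partner of KIF23 in centralspindlin, had 49.3 and 52.2 FPKM in si-YTHDF3 and 71.2 and 65.5 FPKM in NC (log2 fold change -0.42, adjusted p = 0.254), and TACC3, a spindle microtubule stabilizer, had 62.8 and 64.6 FPKM in si-YTHDF3 and 49.5 and 46.7 FPKM in NC (log2 fold change 0.40, limma adjusted p = 0.260). The list thus held members that differed in opposite directions.

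Of 6 kinesin-associated subunits, the light chains with KIFAP3 and KIF1BP, 5 were higher, where 52.0% of all genes were. All their intervals took in 0, and the median was 0.05. Of 18 cargo adaptors 10 were higher and 8 lower, near the share of all genes, with a median of 0.03. Among them BICD2, which also links kinesin-1 and dynein, had 13.6 and 13.7 FPKM in si-YTHDF3, against 7.33 and 6.38 FPKM in NC (log2 fold change 0.90, limma adjusted p = 0.134). RHOT1 and TRAK2, which tie mitochondria to KIF5B, had log2 fold changes of -0.47 and -0.41, and their paralogues RHOT2 and TRAK1 had 0.03 and 0.20. Of 19 intraflagellar transport genes tested 15 were higher, where 52.0% of all genes were, with a median of 0.12. Among them IFT27 had 9.69 and 10.9 FPKM in si-YTHDF3, against 4.49 and 4.89 FPKM in NC (log2 fold change 0.99, limma adjusted p = 0.130). Dynein and dynactin genes had a median of 0.07 and 0 of 17 at an unadjusted p under 0.05. Tubulins had a median of -0.12 with 10 of 15 lower, where 6941 of all 14457 genes were. The tubulin at an unadjusted p under 0.05 was higher, TUBA1A, with 67.3 and 75.6 FPKM in si-YTHDF3 and 19.3 and 51.4 FPKM in NC (log2 fold change 1.15, limma adjusted p = 0.317). Several tubulins differed widely between the NC libraries, since TUBB2B was at 0 and 8.62 FPKM and TUBA4A at 13.04 and 46.5 FPKM in NC. Over the partner lists 0 of 95 genes tested passed the adjusted threshold in limma, and 11 (11.6%) were at an unadjusted p under 0.05, against 14.8% of all genes.

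**Figure D5:**
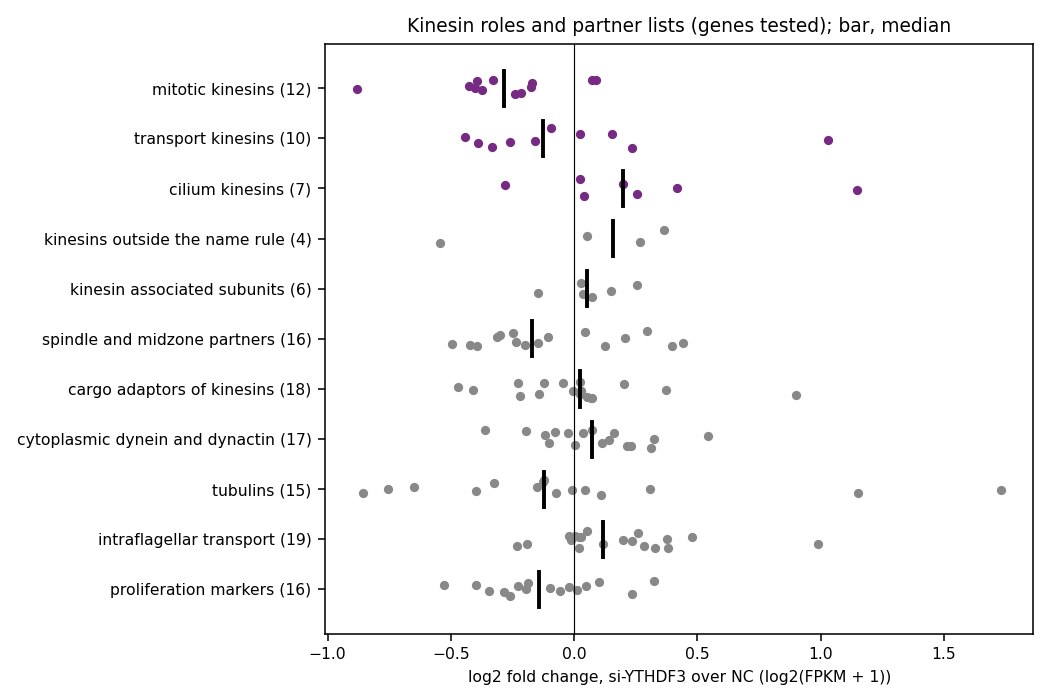
The log2 fold change, si-YTHDF3 over NC (x axis), of each tested gene in the kinesin role groups (purple) and in lists of partners and proliferation markers (grey), with the median as a black bar and the number of genes in brackets. The medians run between -0.28 for mitotic kinesins and 0.20 for ciliary kinesins.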

How the data were processed

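Input RNA of HCT116 cells was compared between si-YTHDF3 and NC (2 libraries each, grouped by the sample titles); the IP libraries had no values per library. The authors deposited FPKM per transcript, with transcript length in bases as another deposited column, and a deposited peak list with a fold enrichment. Deposited fold changes, log2 changes, p-values and q-values of the authors' own comparisons, and the log10 p-values of the peaks, were not used. The submitters' processing notes name GRCh38. For aligner, quantifier and peak caller, names were not given in the sources used here. FPKM keep no read number, so depth is unknown and no counting interval is given.

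FPKM were summed per gene. Genes, and separately transcripts, were kept at a mean of 1 FPKM or more. Their log2(FPKM + 1) entered limma 3.58.1 in R 4.3.3 (lmFit, then eBayes with a trend), without covariates, with Benjamini-Hochberg adjustment over all of them. Fold changes on this scale understate changes of low genes. Tables and figures used Python 3.11.15, pandas 2.3.3 and matplotlib 3.10.9. The test was run on simulated data.

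Members and lists were chosen with earlier results of these data known. Values per library were given by rule for members of at least 5 FPKM at an unadjusted p under 0.05, or 1.5-fold apart. The rule adds up to 4 members per partner list and transcripts of at least 20% of the sum in the 10 genes with the largest change of share. Others were added after their values were seen. The 7 motifs, the length classes, the 20-point rule for shares and the promoters shown were also chosen after seeing the data. Other alternatives were another pseudocount, filter, scaling, normalization, sum, a replicate block and leaving out each library.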

Additional observations from a re-analysis of the deposited data

How the results depend on the processing

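The kinesin genes, the partner genes and transcripts named by rule or singled out, the counts of calls and the medians of all and of mitotic kinesins were recomputed under up to 14 alternatives. Values of proliferation markers, the medians of the other groups, and the transcripts ENST00000265529, ENST00000585687 and ENST00000587309 were not recomputed. Of 31 kinesins tested, 23 kept their direction in every alternative that gave them a value, and 21 passed the filter at a mean of 5 FPKM. The count of kinesins at an adjusted p under 0.05 was 0 except with a replicate block (2, KIF1C and KIF9). The replicate numbers come from the titles and are not stated to mark a shared batch. Library differences correlated at -0.11 over 14457 genes, which cannot show whether same-numbered libraries were handled together. The replicate block also left 1 kinesin lower at an unadjusted p under 0.05. A crossed replicate block, added after seeing the data, gave 9, and 17 partner genes at an unadjusted p under 0.05. Kinesins higher at that p numbered 1 with a filter at a mean of 5 FPKM, and kinesins lower numbered 2 with protein-coding transcripts only. The median log2 fold change was -0.094 with no filter, -0.26 with the 5 FPKM filter and -0.20 scaled to equal library totals. With no filter 24 kinesin transcripts were at an unadjusted p under 0.05, and with the length-weighted sum 23 partner genes were. For these counts under alternatives, the share of all genes or transcripts in the same setting is not given. They cannot be read against the shares of the main fit.

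Leaving out 1 library, where the lone library of a group is assumed to vary like the others, gave 1 to 3 kinesins higher and 1 to 8 lower at an unadjusted p under 0.05. It gave medians between -0.18 and -0.072 (mitotic between -0.47 and -0.19) and 7 to 12 partner genes. Directions turned for KIF5A (-0.00013 scaled to equal totals, -0.0094 with quantile normalization), KIF7 (-0.029 quantile, -0.0052 length-weighted), KIF22 (-0.025) and KIF15 (0.021) with protein-coding transcripts, and KIF20A (-0.23) and KIF12 (-0.17) length-weighted. DYNC1I2 (0.56), KLC1 (-0.23) and TUBA4A (0.0025) turned with protein-coding transcripts, and DYNC1LI1 (-0.38) length-weighted. Over leave-one-out fits, ranges crossed 0 for KIF20A (-0.0039 to 0.19), KIF5A (-0.18 to 0.23), KIF12 (-0.040 to 0.21), KIF20B (-0.46 to 0.029), KIF7 (-0.20 to 0.25), KIF26A (-0.36 to 0.10) and KIF22 (-0.056 to 0.20). Among partners they did so for KLC1 (-0.18 to 0.33), NUMA1 (-0.34 to 1.22), KIFC1 (-0.033 to 0.14), KLC3 (-0.047 to 0.34) and TUBA4A (-1.74 to 0.021). Among transcripts they did so for ENST00000639832 (-0.35 to 0.036), ENST00000326047 (-0.064 to 0.22), ENST00000381103 (-0.32 to 0.23), ENST00000502297 (-0.79 to 0.069) and ENST00000551264 (-2.20 to 0.23). The causes were not tested. Depth limits cannot be given, since FPKM hold no read number.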
